A study of Anas platyrhynchos with 5 samples.

Results

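Black feather bulbs of a pure black duck breed were compared with black feather bulbs of a cross between white breeds, so that bulb colour was held the same and the genetic background differed. The members are 2 of the 5 small RNA libraries of the series, chosen by their labels. The first came from black bulbs of the Cui Hei breed, whose plumage is labelled pure black. The second came from black bulbs of Kaiya-Liancheng F2 ducks, whose plumage is labelled white-black. The other 3 libraries were white bulbs of the same F2 generation, also from ducks labelled white-black, and white bulbs of the pure white Kaiya and Liancheng breeds. All ducks (Anas platyrhynchos) were 12 months old. In each library bulbs of several ducks, 3 from each, were combined before sequencing, and the sources used here give neither the number of ducks in a pool nor whether the black and white F2 bulbs came from the same birds. There is 1 library per group, so no spread between birds could be measured and no test of breed against cross was possible. Every interval below covers counting error only.

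A microRNA (miRNA) is a short RNA cut from a hairpin precursor, which yields a 5p and a 3p arm, and it lowers the output of mRNAs that pair with its seed, the bases 2 to 8 from its 5′ end. The feather bulb is the base of the follicle, where epidermal keratinocytes form the feather around a dermal papilla and melanocytes hand pigment to them. miRNAs with a known home in such tissue are miR-205 and the miR-200 family in epithelium, miR-214 in mesenchyme, miR-204 in pigment cells and the erythroid miR-144 in red blood cells, which are nucleated in birds. In such bulk samples, fewer cells of a type and less miRNA per cell cannot be told apart.

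The sequences of the miRNAs in which the black libraries differed most are given as the deposited tables list them, 5′ to 3′, with the seed in capitals. The first pair shows miRNAs that carry the name miR-10b in the tables, share a seed and had unlike ratios. Such miRNAs are called copies here after the shared name, whether or not they are copies of the same gene. All names are those of the tables and were not checked against known miRNA sequences. A miRNA may therefore be known elsewhere under another name, and names that look like copies may be different genes. miR-196 is the other family encoded in the HOX gene clusters.

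miR-10b-1-5p: uACCCUGUagaaccgaauuugu
miR-10b-2-5p: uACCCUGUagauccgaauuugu
miR-196-1,2,3-5p: uAGGUAGUuucauguuguuggga

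The next set holds the other highest ratios towards Cui Hei, among them the 5p arms of hairpins that carry no family number in the tables (the third and the sixth of 7), and the pigment cell miRNA miR-204-5p.

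miR-215-5p: aUGACCUAugaauugacagacu
The third hairpin without a family number, 5p: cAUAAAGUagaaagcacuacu
The sixth hairpin without a family number, 5p: gGCUGUGCuguaaguguucccu
miR-204-5p: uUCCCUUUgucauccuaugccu

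The last set holds the miRNAs that were highest in the F2 black library relative to Cui Hei, with the copy miR-449c-1-5p, which shares the seed of miR-449c-2-5p.

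miR-449c-2-5p: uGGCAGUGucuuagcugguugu
miR-449c-1-5p: aGGCAGUGuguuguucgguggcugc
miR-460a-5p: cCUGCAUUguacacacugugugu

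The Cui Hei library held 3476838 reads with each mature name counted once, and the F2 black library held 1988317. The other libraries had between 1601329 and 4269854 reads. Of 134 mature names in the tables, all but 28 had at least 50 reads in the black libraries together and were compared, and these held 99.9937% of their reads. The 28 left out had at most 46 reads, and 2 of them had 0 in both. Levels are given as CPM, the reads scaled to the same fixed total in every library, with TMM factors that correct for differences in library composition.

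Black bulbs of the breed and of the cross had nearly the same miRNA profile. Of the compared miRNAs, 1 (0.943%) was past 1 or -1 on the log2 scale, which is the size criterion of the series. It was miR-10b-2-5p, a member of the HOX-encoded miR-10 family, and it was higher in Cui Hei. None reached -1 (0.0%). At or past 0.5 or -0.5 there were 11 (10.4%), of which 9 were higher in Cui Hei and 2 in the F2 black library, or 6 and 4 with DESeq2 size factors. The median absolute log2 ratio was 0.17 and the SD over miRNAs 0.33. The counting interval excluded 0 for 60 (56.6%), 36 of them towards Cui Hei and 24 towards F2 black. Such an interval narrows with depth and holds nothing of the variation between birds. Scaling moved the number past the criterion by 1: with DESeq2 size factors miR-449c-2-5p joined at -1.00, which made 1 higher in each library, and with upper-quartile scaling miR-215-5p joined at 1.02.

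**Figure D1:**
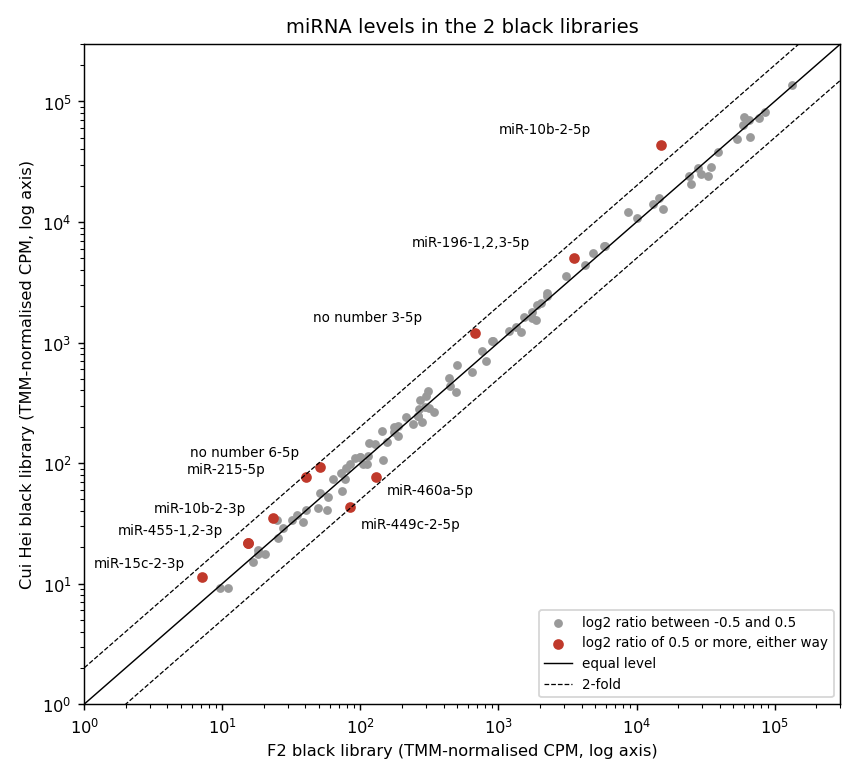
Level of each compared miRNA in the F2 black library (x axis) and in the Cui Hei black library (y axis), both as TMM-normalised CPM on log axes, with lines for equal levels and for a 2-fold difference. Points in red are at or past 0.5 or -0.5 on the log2 scale, and miR-10b-2-5p is the point beyond the 2-fold line. Hairpins without a family number are written as no number, and miR-455-2-3p lies under miR-455-1,2-3p.

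The 10 most abundant miRNAs took 69.3% of the reads in the Cui Hei library and 70.9% in the F2 black library. The first was miR-10b-1-5p, with 14.2% of the reads in Cui Hei and 14.0% in F2 black and a log2 ratio of 0.04. It was followed by let-7d-5p (8.50% and 9.03%), the epithelial miR-205b-5p (7.63% and 8.07%), miR-22-3p (7.29% and 6.91%) and miR-181b-1,2-5p (7.78% and 6.37%). Next came miR-26a-5p, miR-146b-1,2-5p, miR-27b-3p, miR-367-3p and miR-31-5p. The ratios of these 10 lay between -0.41 for miR-146b-1,2-5p and 0.31 for miR-181b-1,2-5p. Upper-quartile scaling turned let-7d-5p, miR-205b-5p and miR-367-3p from slightly negative to slightly positive (0.03, 0.04 and 0.07).

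miR-10b-2-5p stood at 43487 CPM in the Cui Hei library, from 156864 reads, and at 15008 CPM in the F2 black library, from 31419 reads. This is a 2.90-fold higher level in Cui Hei, with a counting interval of 2.86 to 2.93. Its level was 31746 CPM in the white F2 library, 102957 CPM in Kaiya and 19871 CPM in Liancheng. The F2 black library was thus the lowest of the 5, below both white breeds from which the cross descends, and Cui Hei was the second highest after Kaiya. Its share of all reads was 4.51% in Cui Hei (95% Clopper-Pearson interval 4.49% to 4.53%) and 1.58% in F2 black (1.56% to 1.60%). Over the scalings, read minimums and the other settings tried its log2 ratio stayed between 1.50 and 1.63.

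The other arm of that hairpin, miR-10b-2-3p, lay on the same side with far fewer reads. It had 34.9 CPM in Cui Hei and 23.4 CPM in F2 black, from 175 reads in all, 49 of them in F2 black, with a log2 ratio of 0.58 (counting interval 0.09 to 1.08). The white F2 library had 25.3 CPM, Kaiya 60.6 CPM and Liancheng 17.5 CPM, so that Kaiya was again the highest and Cui Hei second, with Liancheng as the lowest. The hairpin listed as mir-10b-1 did not share the difference. Its log2 ratio was 0.04 (0.04 to 0.05) for the 5p arm and -0.21 (-0.79 to 0.38) for the 3p arm.

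miR-196-1,2,3-5p, the other HOX-encoded family, was 1.43-fold higher in Cui Hei (1.39 to 1.47). Its level was 5031 CPM in Cui Hei, 3517 CPM in F2 black, 1844 CPM in F2 white, 5442 CPM in Kaiya and 4602 CPM in Liancheng. Both F2 libraries lay below all 3 pure-breed libraries. Of the 5 HOX-encoded miRNAs compared, 4 had a positive log2 ratio, beside 59.4% of all compared, and 3 of the 9 miRNAs at 0.5 or above were theirs. With DESeq2 size factors and with library size alone miR-196-1,2,3-5p fell just short of 0.5, which left 2. The list median was 0.52 beside 0.06 over all compared. The summed level of the list was 185216 CPM in Cui Hei and 151186 CPM in F2 black. Both arms of a hairpin and copies of a family are not independent members.

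**Figure D2:**
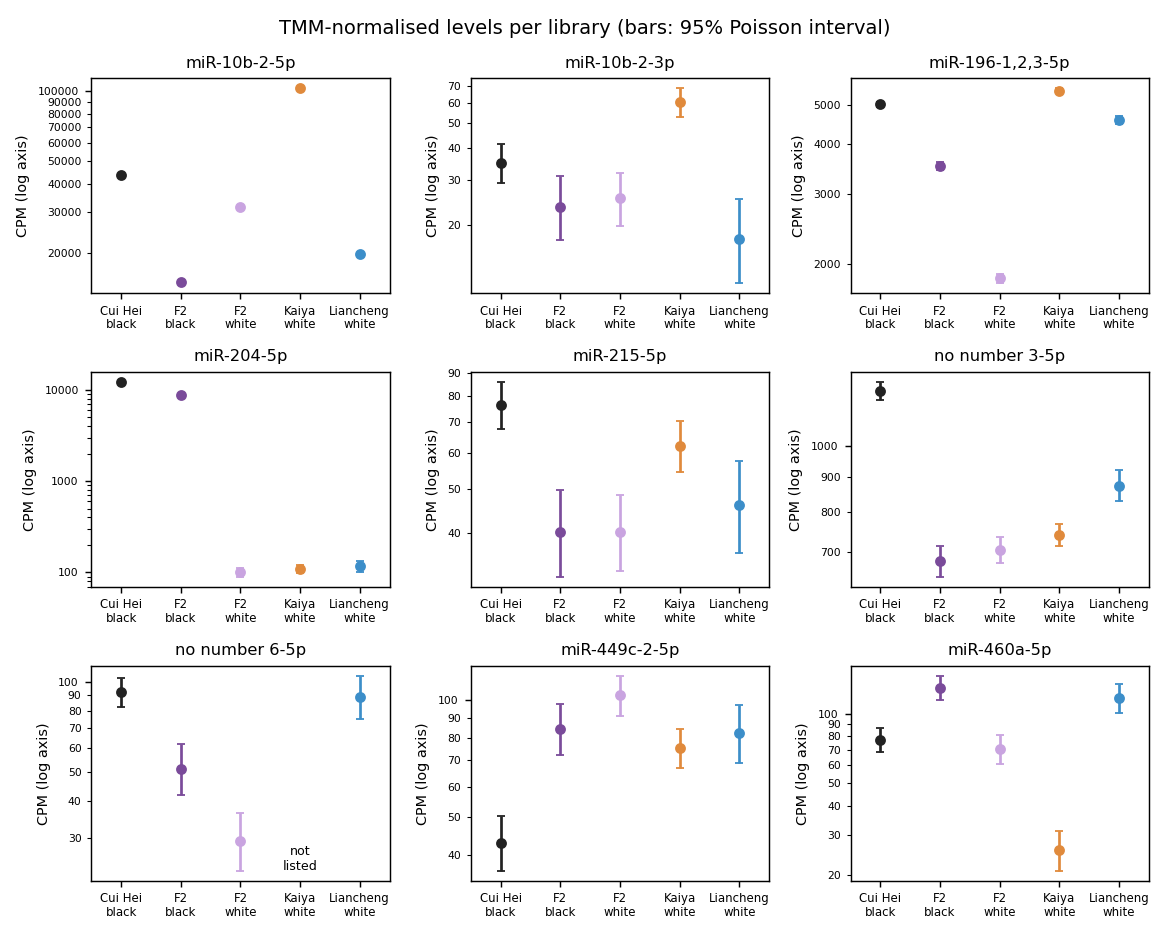
TMM-normalised CPM of 9 miRNAs in each of the 5 libraries, on log axes with a different range in each panel. Bars are exact 95% Poisson intervals and cover counting error only. In miR-10b-2-5p the F2 black library is the lowest at 15008 CPM, and in miR-449c-2-5p the Cui Hei library is the lowest at 43.0 CPM.

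Because copies of a family are counted in the same library, their ratio does not depend on scaling. The listed sequences of miR-10b-1-5p and miR-10b-2-5p differ at a single base, A12U, with positions counted from 1 at the 5′ end and the base of miR-10b-1-5p given first. For every read of miR-10b-1-5p there were 0.318 reads of miR-10b-2-5p in Cui Hei and 0.113 in F2 black, a 2.81-fold difference (exact interval 2.78 to 2.85). The same ratio was 0.222 in F2 white, 0.536 in Kaiya and 0.150 in Liancheng. The F2 black value was the lowest of the 5, and the white F2 value lay between those of the Kaiya and Liancheng libraries. A read that carries a sequencing error at position 12 can be counted for the wrong copy, and the sources used here do not say how mismatches were handled.

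Other copies showed smaller shifts, the widest of them in miR-449c. miR-449c-2-5p and miR-449c-1-5p share a seed and, in the tables, the family name, but their listed sequences differ in length. Whether they are copies of the same gene was not tested. miR-449c-2-5p had 0.585 reads per read of miR-449c-1-5p in Cui Hei and 1.32 in F2 black. This is 2.26-fold more in F2 black (1.66 to 3.09). The white libraries had 1.29 (F2 white), 0.725 (Kaiya) and 1.06 (Liancheng), so Cui Hei had the lowest value and both F2 libraries the highest. Next widest was the shift of the miR-10b 3p arms. Their ratio of copy 2 to copy 1 was 1.97 in Cui Hei and 1.14 in F2 black. This 1.73-fold difference had a wide interval (1.01 to 2.96). The 3p arms of mir-30e, whose listed sequences differ at G18A (copy 1 first), had a ratio of copy 2 to copy 1 of 2.68 in Cui Hei and 1.88 in F2 black, a 1.43-fold difference (1.29 to 1.58), while the 5p arms differed by 1.08-fold (1.06 to 1.10). The 3p arms of mir-181b, which differ at C16U, had a ratio of 1.63 in Cui Hei and 1.18 in F2 black, a 1.39-fold difference (1.20 to 1.60). The miR-15c 5p arms share the family name and a seed, but their listed sequences differ at 7 bases. Their ratio of copy 2 to copy 1 was 0.289 in Cui Hei and 0.360 in F2 black. F2 black was close to Kaiya (0.348) and Liancheng (0.362). In miR-103-3p and miR-106-5p the intervals of the difference included 0 on the log2 scale (-0.17 to 0.03 and -0.39 to 0.12).

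**Figure D3:**
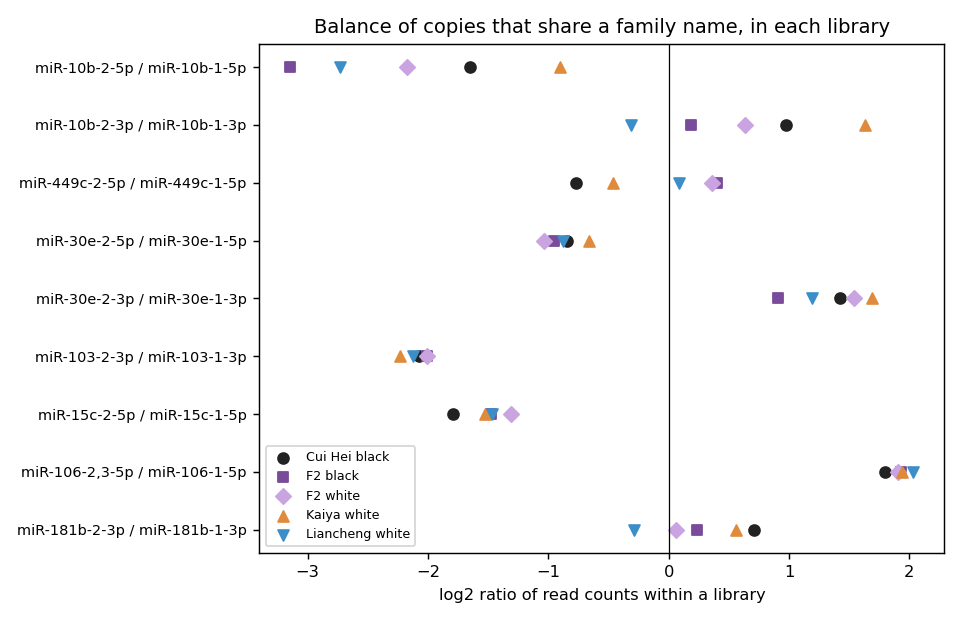
Log2 ratio of the reads of copy 2 to those of copy 1 within each library, for 9 pairs of mature miRNAs that share a family name (x axis), with a symbol per library. The pair of miR-10b 5p arms spans the widest range, from -3.14 in F2 black to -0.90 in Kaiya, whereas the miR-103 and miR-106 pairs lie close together in all 5 libraries.

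miR-204-5p, which has the seed of the melanocyte-enriched miR-211, was at a high level in both black libraries. It had 12076 CPM in Cui Hei and 8711 CPM in F2 black, a log2 ratio of 0.47 (0.45 to 0.50), beside 100.6 to 117 CPM in the 3 white libraries. Cui Hei was thus 1.39-fold above F2 black (1.36 to 1.41), a gap that is small beside that to the white bulbs. Its 3p arm had 28.8 CPM in Cui Hei and 27.7 CPM in F2 black, from 104 and 58 reads, a log2 ratio of 0.06 (-0.42 to 0.55). Of the 11 melanocyte and pigmentation miRNAs compared, 6 were positive and 5 negative, none reached 0.5, and the median was 0.04 beside 0.06 over all compared. With upper-quartile scaling 9 were positive and 2 negative, and miR-204-5p reached 0.57. The lowest was miR-125b-3p at -0.27 (-0.33 to -0.21).

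The next highest ratio after miR-10b-2-5p was that of miR-215-5p, whose family is known for its high level in gut epithelium of mammals. It had 76.2 CPM in Cui Hei and 40.1 CPM in F2 black, from 275 and 84 reads, a log2 ratio of 0.93 (0.57 to 1.30). The white libraries had 40.2 CPM (F2), 62.1 CPM (Kaiya) and 46.0 CPM (Liancheng). Both F2 libraries were at the same level here and Cui Hei was the highest of the 5.

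A pair of hairpins without a family number followed. The 5p arm of the sixth had 92.04 CPM in Cui Hei, 51.1 CPM in F2 black, 29.3 CPM in F2 white and 88.9 CPM in Liancheng, and the hairpin is not listed for Kaiya. Its log2 ratio was 0.85 (0.53 to 1.18). The 5p arm of the third had 1202 CPM in Cui Hei, against 678 CPM in F2 black and 705, 741 and 874 CPM in F2 white, Kaiya and Liancheng. Cui Hei stood above the other 4 libraries, which ran from 678 to 874 CPM. The log2 ratio to F2 black was 0.82 (0.74 to 0.91). The 3p arm of the third hairpin had a log2 ratio of 0.21 (-0.08 to 0.50).

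Where the black libraries together gave 200 reads or more, 2 miRNAs were lower in Cui Hei by 0.5 or more on the log2 scale. miR-449c-2-5p had 43.0 CPM in Cui Hei and 84.1 CPM in F2 black, from 331 reads in all, 176 of them in F2 black, with a log2 ratio of -0.97 (-1.29 to -0.65). The white libraries had 102.8 CPM (F2), 75.2 CPM (Kaiya) and 82.3 CPM (Liancheng), so that Cui Hei was the low library and the F2 black bulbs were within the range of the white ones. miR-460a-5p, from a family known in birds and fishes, had 77.3 CPM in Cui Hei and 130 CPM in F2 black, from 279 and 272 reads, a log2 ratio of -0.75 (-0.99 to -0.50). It had 70.2 CPM in F2 white, 25.7 CPM in Kaiya and 117 CPM in Liancheng, and here F2 black was the highest of the 5, next to Liancheng.

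Smaller values on the lower side belonged to miR-499-5p, encoded in a myosin gene, at -0.49 (-0.85 to -0.13), and to the 3p arm of the second hairpin without a family number at -0.47 (-0.48 to -0.45). The latter had 23876 CPM in Cui Hei and 33037 CPM in F2 black. The 3p arm of the first such hairpin was at -0.44 (-0.66 to -0.21). miR-146b-1,2-5p, induced in inflammation in mammals, was at 50292 CPM in Cui Hei and 66638 CPM in F2 black, a log2 ratio of -0.41 (-0.42 to -0.40). The white F2 library had the highest level of miR-146b-1,2-5p at 90806 CPM, and Cui Hei had the lowest of the 5. miR-1552-5p, miR-30e-1-3p, miR-9-3p and miR-187-3p lay between -0.37 and -0.32. On the higher side miR-106-3p, miR-2188-5p, miR-181b-2-3p and miR-106-1-5p lay between 0.35 and 0.38.

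**Figure D4:**
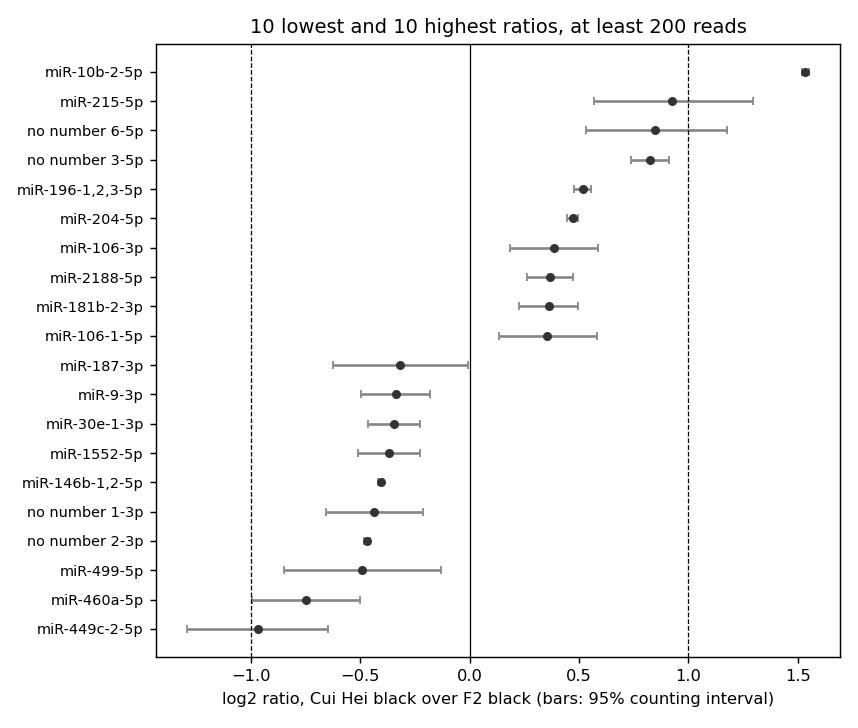
Log2 ratio of Cui Hei black over F2 black for the 10 lowest and the 10 highest among miRNAs whose reads in both libraries add up to 200 or more, with exact 95% counting intervals as bars. Dashed lines mark -1 and 1, and miR-10b-2-5p at 1.53 is the point beyond them. Hairpins without a family number are written as no number.

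By family, the erythroid miR-144 and its neighbour in non-mammalian vertebrates, miR-2188, were on the side of Cui Hei. All 4 arms had a positive ratio under every scaling, with a median of 0.28 beside 0.06 over all compared, and none reached 0.5. miR-144-3p had 360 CPM in Cui Hei and 297 CPM in F2 black, a log2 ratio of 0.28 (0.14 to 0.42), and miR-144-5p had 0.28 (0.03 to 0.53). miR-2188-5p had 650 CPM and 504 CPM, a log2 ratio of 0.37 (0.26 to 0.47), and miR-2188-3p 0.08 (-0.36 to 0.53). The summed level of the 4 arms was 1154 CPM in Cui Hei and 924 CPM in F2 black, against 493 CPM in F2 white, 882 CPM in Kaiya and 134 CPM in Liancheng. Whether blood in the bulbs has a part in other differences was not tested.

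The miRNAs named miR-106, miR-18a or miR-19a, families of the miR-17-92 clusters known to promote proliferation, were also on one side. Lists were made by the number in the mature name and not by sequence. A family member listed under another number is therefore left out, and the list does not speak for the clusters as a whole. All 8 compared had a positive log2 ratio, from 0.05 to 0.38 with a median of 0.19, and the counting interval lay above 0 in 4 of them and included 0 in 4. The 8 signs were positive under every scaling, with list medians between 0.16 and 0.29. They include miR-106-3p at 0.38 (0.18 to 0.59), miR-19a-1,2-3p at 0.20 (0.12 to 0.28) and miR-18a-2-3p at 0.05 (-0.54 to 0.67). Of these 8, miR-106-3-3p and miR-106-2,3-3p have the same counts in both libraries and overlapping listed sequences, and so stand for the same reads. Of all those compared, 63 were positive and 43 negative, or 75 and 31 with upper-quartile scaling.

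Cell type lists of the follicle, made by the number in the mature name, differed little. A member that the tables give another number or no number is left out, so no list speaks for a cell type as a whole. Of the 7 names in the keratinocyte and epithelial list, 4 were positive and 3 negative (median 0.06). They ran from miR-31-5p at -0.26 (-0.27 to -0.25) to miR-31-3p at 0.14 (-0.04 to 0.32), the opposite arms of a single hairpin. miR-200a-3p had 0.08 (0.02 to 0.15) and miR-429-3p 0.06 (0.00 to 0.11). The summed level of this list was 106591 CPM in Cui Hei and 115116 CPM in F2 black, and the epithelial markers were thus abundant in both. The 3 names that the dermal mesenchyme list could cover were all positive. They were miR-214-3p at 0.32 (0.17 to 0.46), miR-214-5p at 0.22 (-0.06 to 0.50) and miR-22-3p at 0.10 (0.09 to 0.11). Other mesenchyme miRNAs under another name were not looked for. In the endothelial list miR-126-5p had -0.29 (-0.31 to -0.27) and miR-126-3p 0.02 (-0.04 to 0.09). The leukocyte list held only the arms of mir-146b, and both were negative (median -0.30). Hairpins without a family number were not assigned to it, so these values do not give the direction of leukocyte miRNAs in general. Of the 5 neural members 3 were negative (median -0.12), and the single muscle member compared was miR-499-5p.

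In the remaining families the medians were 0.07 for the 4 miR-30 members, 0.19 for the 5 of miR-15 and miR-103, -0.11 for the 3 of miR-23 and miR-27 and -0.07 for the 3 of miR-21 and miR-460. The highest member of miR-15 and miR-103 was miR-15c-2-3p at 0.67 (-0.22 to 1.63), from 41 and 15 reads. miR-21-5p was at the same level in both libraries, with 24156 CPM in Cui Hei and 24005 CPM in F2 black and a log2 ratio of 0.01 (-0.01 to 0.02). The 12 with 4-digit family numbers, grouped by the number alone, had a median of -0.01. They ran from miR-1552-5p at -0.37 to miR-2131-5p at 0.45 (-0.03 to 0.94). Under upper-quartile scaling the medians of the endothelial list, let-7, miR-21 with miR-460 and the 4-digit family numbers turned from negative to positive, while the other 13 list medians kept their sign under all scalings.

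**Figure D5:**
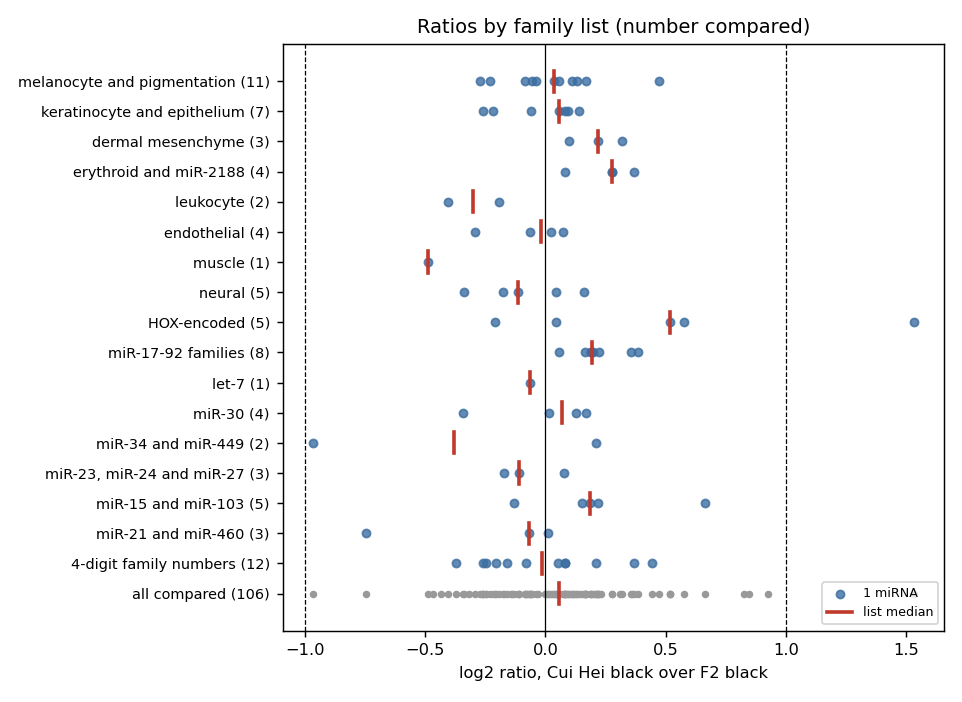
Log2 ratio of Cui Hei black over F2 black for each compared miRNA (points), by family list, with the list's median as a red line and the number compared in brackets. All compared miRNAs are shown in grey at the bottom, with a median of 0.06, and the HOX-encoded list has the highest median at 0.52.

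The 9 miRNAs at 0.5 or above had listed sequences of 21 to 23 bases and a median GC content of 39.1%, beside 45.5% over all compared. They include miR-455-1,2-3p and miR-455-2-3p at 0.52 (-0.09 to 1.16), which overlap in sequence and rest on the same 79 and 32 reads. Among those compared 97 different seeds were found, of which 9 were each shared by 2 names of the same family, most of them the copies named above.

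The balance of the arms is another readout that scaling does not touch. In 41 hairpins whose arms each had 50 reads or more, the difference between Cui Hei and F2 black in the log2 ratio of 5p to 3p reads reached 1 in 0 (0.0%) and 0.5 in 6 (14.6%), and the exact interval excluded 0 in 10 (24.4%). The median absolute difference was 0.17. The widest was that of mir-10b-2, with a log2 5p to 3p ratio of 10.28 in Cui Hei and 9.31 in F2 black, a difference of 0.97 (0.45 to 1.44). In the white libraries it was 10.28 (F2), 10.73 (Kaiya) and 10.12 (Liancheng), which leaves F2 black as the low library. The third hairpin without a family number had 3.85 in Cui Hei and 3.23 in F2 black, a difference of 0.62 (0.31 to 0.92). The others were mir-15c-2 at -0.77 (-1.76 to 0.09), mir-2131 at 0.69 (0.04 to 1.35) and mir-455 at -0.58 (-1.27 to 0.05), the last listed under both of its copies with the same reads. For mir-204 the difference was 0.42 (-0.08 to 0.89).

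Set beside all 10 pairs of libraries, the black pair was the most alike under TMM scaling, by a small margin in the median. Over the miRNAs with at least 50 reads in every pair together and a read in every library, its median absolute log2 ratio was 0.17, and those of the other 9 pairs lay between 0.19 (F2 black and Kaiya) and 0.37 (F2 white and Kaiya). Its SD was 0.33 against 0.58 to 0.95. With miR-204-5p left out, since it separates the colours, the SD was 0.32 against 0.39 (Cui Hei and Kaiya) to 0.76 (Kaiya and Liancheng). In the black pair 1 miRNA reached the size criterion, and in the other pairs 4 to 11 did. The pairs share libraries, so their values are a description.

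For each compared miRNA the white libraries were placed by which black library they were nearer to. The white F2 library was nearer to F2 black in 75 of those compared (70.8%) and to Cui Hei in 31. Kaiya was nearer to F2 black in 51 of 105 (48.6%) and Liancheng in 57 of all compared (53.8%). Among the 11 miRNAs at 0.5 or more in either direction, the white F2 library was nearer to F2 black in 7, Kaiya in 5 of 10 and Liancheng in 6 of 11. The level of F2 black lay between those of Kaiya and Liancheng in 43 of 105 (41.0%), that of F2 white in 32 (30.5%) and that of Cui Hei, which does not descend from these breeds by its label, in 55 (52.4%).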

How the data were processed

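Small RNA of feather bulbs was sequenced on an Illumina HiSeq instrument, 1 pooled library per group. Per the series' design text the reads were analysed with miRDeep2 2.1.2, and the submitters' processing notes add FastQC and Bowtie 0.12.2. No genome build is named in the sources used here. The authors deposited raw counts of reads for each hairpin and each mature sequence, beside their own CPM, which equal the count as its part of the table's total to within 0.005 CPM. In every hairpin the total equals mature plus remaining reads. Where several hairpins list the same mature name, the line with the highest count was kept. A read that fits several hairpins is listed under each, so hairpins that list the same mature name share reads.

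From the counts, TMM factors over the 5 libraries (edgeR 4.0.16, R 4.3.3), log2 ratios and exact conditional (Clopper-Pearson) 95% intervals (scipy 1.17.1) were computed for names with at least 50 reads in both black libraries together. Levels have exact Poisson intervals. Ratios of arms (pseudocount 0.5) and of copies have exact odds ratio intervals. The floor of 3 reads is 0.832 CPM in Cui Hei and 1.43 CPM in F2 black. Reads carry no molecular identifiers. The intervals were tested on counts simulated with counting error alone and with the scaling kept fixed. Such a test cannot speak for variation between birds or libraries, or for error in the scaling. Nearness to a library was taken on log2 levels with a pseudocount of 0.5 reads.

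The libraries, lists, comparisons and thresholds were chosen with earlier results of these data known. Named are miRNAs past a log2 ratio of 1 with their other arm, the 10 at either end of the ratios among those of 200 reads or more, the 10 most abundant, list members of at least 10 CPM and the 5 hairpins with the widest arm difference, of which the text gives some. The copy pairs, the limit of 0.5 on the log2 scale and the position between the white breeds were chosen after the values were seen. Alternatives were library size alone, DESeq2 1.42.0 size factors, upper-quartile factors, TMM over the black libraries, other read minimums, summed lines, hairpin totals and leaving out the most abundant miRNA.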

Additional observations from a re-analysis of the deposited data

Results flagged for a closer look

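Reads on mir-27b-1 outside its listed mature sequence numbered 84442 in the Cui Hei library and 57074 in the F2 black library, which is 99.3% of such reads in each. They are a signal in a part of the tables from which the comparison of mature miRNAs took no counts. The 3p name miR-27b-3p is listed under mir-27b-2 only. Whether the same reads are also counted there was not tested.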

How the results depend on the processing

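No paired analysis was possible because each group holds 1 library. For the same reason no replicate could be left out. miR-10b-2-5p stayed past the size criterion under every setting in which it was computed. The black pair kept the lowest SD of the 10 pairs with minimums of 10 and of 200 reads. A change of scaling cannot alter this SD, because it shifts all log2 ratios of a pair alike. It can alter the median absolute log2 ratio, whose rank among the pairs was not tested under other scalings. The count higher in Cui Hei, 1, rose to 2 with upper-quartile scaling and with a minimum of 10 reads, and to 10 with no minimum. The count higher in F2 black, 0, became 1 with DESeq2 size factors, 4 with a minimum of 10 reads and 6 with no minimum. The count at 0.5 or more, 11, became 20 with a minimum of 10 reads, 33 with none, 7 with a minimum of 200 reads and 6 with hairpin totals, which sum the arms of 73 hairpins. The read minimum sets how many rare miRNAs enter. The cause of the change with hairpin totals was not tested. With a minimum of 10 reads in each pair of libraries, chosen after seeing the data, 4 miRNAs were past the criterion in the black pair in place of 1. With at least 200 reads on each arm the hairpins with an arm difference of 0.5 numbered 1 in place of 6. Leaving out the names that share reads, also chosen after seeing the data, lowered the count at 0.5 or more to 10 and left the counts past the criterion at 1 and 0.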
